A study of Mus musculus with 18 samples.

Results

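The coinhibitory receptors and ligands described here are 9 genes of the 23930 on a targeted mouse transcriptome panel: Pdcd1, Cd274, Ctla4, Lag3, Havcr2, Tigit, Btla, Cd160 and Entpd1. They were taken by name, as the entries of both count tables whose gene symbol equals one of these, a rule that reads no measured value, although the genes were picked with earlier results of these data known. All 9 are on the panel and all 9 were among the 11316 genes left after low counts were removed, although Havcr2 in control CD8 cells and Cd160 in control CD4 cells stood at a few counts per library.

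T cells of the CD4 and the CD8 kind came from mouse bone marrow, purified by flow cytometric sorting, and their RNA was read with amplicons, 1 per gene. The comparisons set T cells of mice with induced interleukin-10 (IL-10) against T cells of mice without it. Zinc-fed pMT-10 mice carry an IL-10 transgene behind a metallothionein promoter, which zinc switches on in many kinds of cells, and drank zinc-enriched water for 30 days. Their controls were pMT-10 mice on control water, which carry the same transgene, and C57BL/6 mice on zinc-enriched water for 30 days, which carry none. Each of the 3 kinds of mice gave 3 CD4 and 3 CD8 libraries, 18 in 6 groups. The age of the mice is not given in the sources used here.

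Coinhibitory receptors are surface proteins that dampen signalling from the T cell antigen receptor when they meet ligands on neighbouring cells. T cells raise them after activation, several of them at once mark T cells that stay under lasting stimulation, and regulatory T cells carry some of them, Ctla4 and Tigit among them, at rest. Bone marrow holds many memory and regulatory T cells.

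Libraries held 10546798 to 18519474 counts, and levels are given as CPM, the count scaled to a common library size, of which 1 stood for 10.5 to 18.5 reads, and replicates of a group correlated across genes at r of 0.958 to 0.976. The sort held in all libraries: Cd4 was at 1654 CPM or more in CD4 libraries and at 5.56 CPM or less in CD8 libraries. Cd8a and Cd8b1 summed to 3512 CPM or more in CD8 libraries and to 45.5 CPM or less in CD4 libraries. One chip carried the 12 libraries from zinc-fed mice and another the 6 from no-zinc pMT-10 mice, so zinc and chip cannot be told apart between the pMT-10 groups. Counts of 4 Y-linked genes summed to 0 to 8 in pMT-10 libraries and to 2866 to 5188 in C57BL/6 libraries, and Xist, which is read from the inactive X chromosome, had 6117 to 18633 counts in pMT-10 and 2 to 510 in C57BL/6 libraries, so sex and strain cannot be told apart against C57BL/6. Xist was at 40.1 CPM in C57BL/6 CD4 replicate 3, against 0.456 and 7.49 CPM in the other C57BL/6 CD4 libraries. Without replicate 3, 6 members were called in CD4 cells against C57BL/6 in place of 7, Tigit no longer (adjusted p = 0.0940). None of the 9 genes lies on a sex chromosome. Il10 itself was at 26.0, 16.6 and 20.9 CPM in zinc-fed pMT-10 CD4 cells, against 3.10, 3.63 and 1.40 CPM without zinc and 7.14, 3.01 and 8.25 CPM in C57BL/6 mice. In CD8 cells it was at 22.4, 3.20 and 12.9 CPM in zinc-fed pMT-10 mice and at 0 counts in all 6 control libraries. In sorted but unseparated RNA, more cells that express a gene and more RNA in each cell cannot be told apart. The series' design names 3 mice of each kind, so libraries share mice, and does not tie a CD4 to a CD8 library. The p-values measure the spread between these samples, taken as independent.

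In zinc-fed pMT-10 CD8 cells, every member stood above all control libraries in each of the 3 libraries, and 7 members rose against C57BL/6 and 8 against pMT-10 without zinc. In CD4 cells 6 members rose, Pdcd1, Lag3, Havcr2, Tigit, Cd160 and Cd274, and Ctla4 fell, the same against each control. A gene was called changed at an adjusted p under 0.05 over all genes tested in edgeR's quasi-likelihood test. Of all genes tested, 5.68% were higher in CD8 cells against C57BL/6 and 5.1% against pMT-10 without zinc, and in CD4 cells 9.29% and 9.38% were higher, while 9.4% were lower against each. The 3 zinc-fed pMT-10 libraries lay above all 3 of a control for 9 of 9 members in CD8 cells, where 12.2% of all genes did so against C57BL/6 and 11.9% against pMT-10 without zinc. In CD4 cells 7 members lay above and Ctla4 below each control, where 18.6% of all genes lay above and 18.8% below C57BL/6, and 21% above and 22.3% below pMT-10 without zinc. The median log2 fold change over the 9 members was 3.21 in CD8 cells against C57BL/6 and 2.94 against pMT-10 without zinc, and in CD4 cells it was 1.04 and 1.51. Over all genes tested the medians ran from -0.05 to -0.00.

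**Figure D1:**
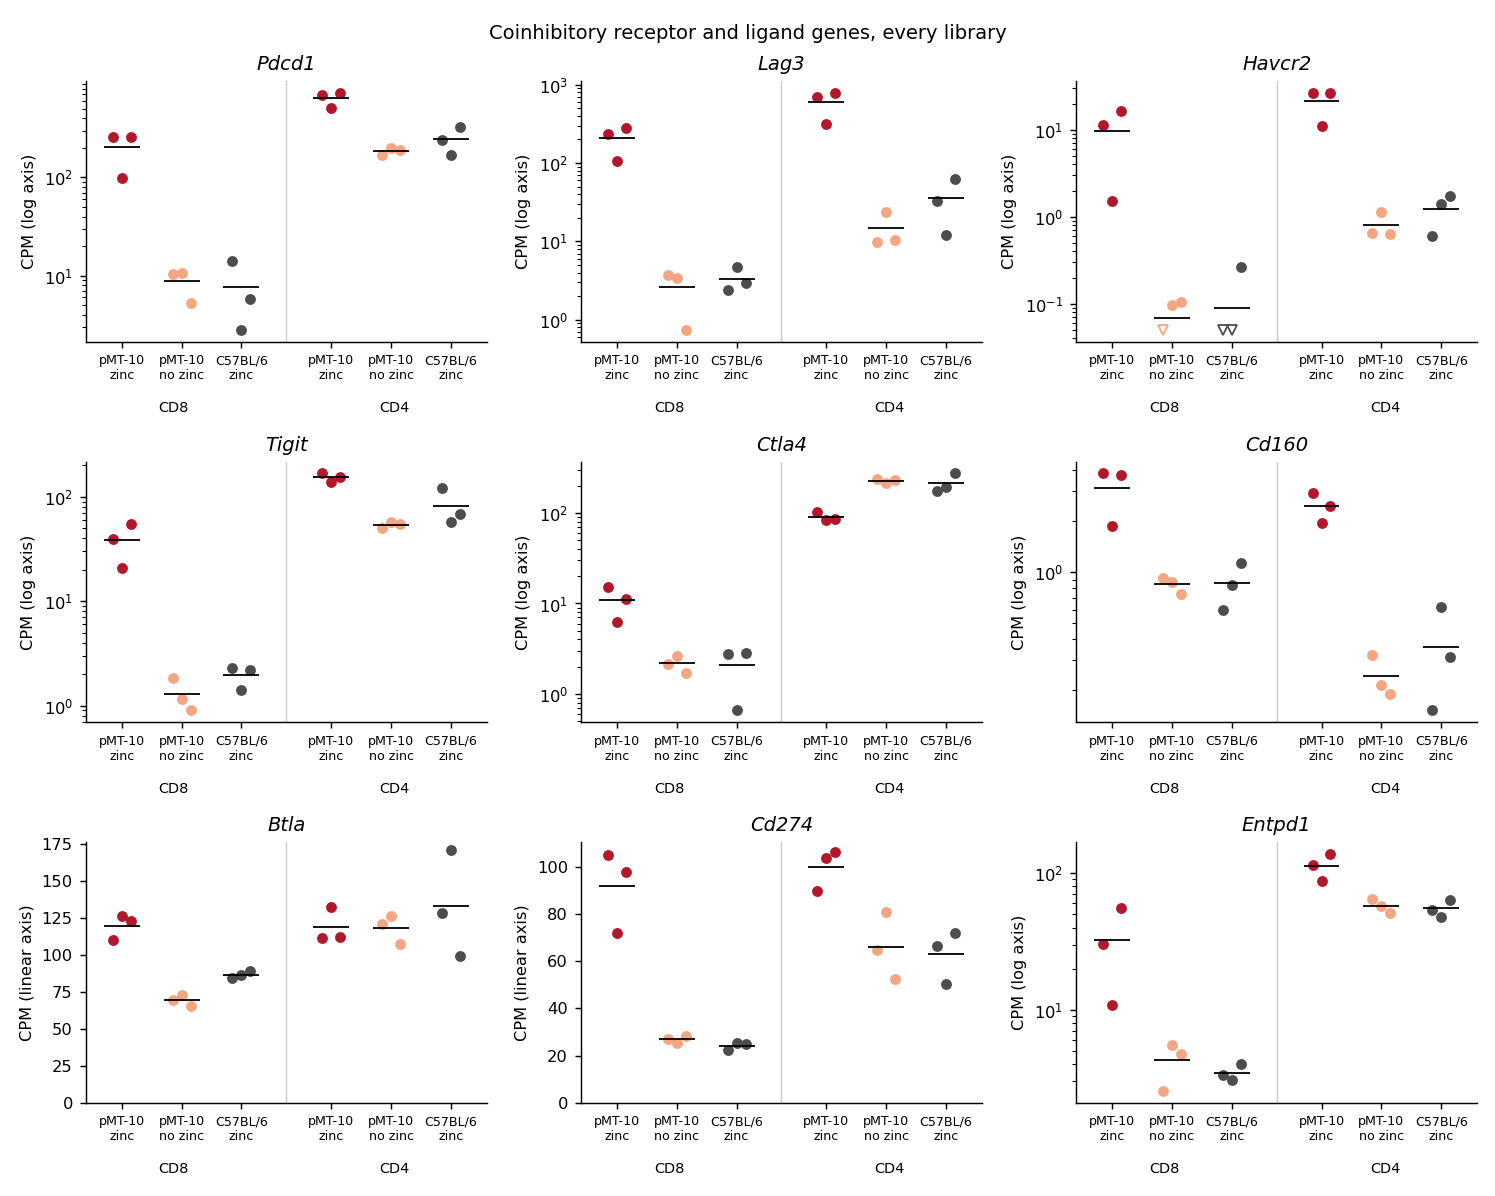
CPM of each member in all 18 libraries, CD8 left and CD4 right in each panel, on a log axis except for Btla and Cd274, whose axes are linear from 0; points are libraries, lines are group means (n = 3) and open triangles at the foot mark libraries at 0 counts. Zinc-fed pMT-10 CD8 libraries lie above both CD8 controls in all 9 panels, and zinc-fed pMT-10 CD4 libraries lie below both CD4 controls for Ctla4.

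Pdcd1 (chr1:94038305-94052553, build GRCm38.p6) encodes PD-1, the receptor that recruits phosphatases to the antigen receptor once it binds its ligands. CD4 cells held 689, 509 and 725 CPM in replicates 1 to 3 of zinc-fed pMT-10 mice, against 171, 199 and 191 CPM without zinc and 241, 167 and 323 CPM in C57BL/6 mice. CD8 cells held 258, 98.3 and 255 CPM in zinc-fed pMT-10 mice, against 10.3, 10.6 and 5.30 CPM without zinc and 14.2, 2.80 and 5.82 CPM in C57BL/6 mice. The zinc-fed pMT-10 libraries were the high ones in both cell types, with no overlap, and replicate 2 was the lowest of the 3 in each. Pdcd1 rose in CD8 cells by 4.74 (SE 0.50, adjusted p = 1.93e-05) on the log2 scale against C57BL/6 and by 4.56 (SE 0.50, adjusted p = 2.14e-05) against pMT-10 without zinc. As a ratio of mean CPM that was 26.7-fold against C57BL/6, which became 47.2-fold without replicate 1 of the C57BL/6 CD8 group, and 23.3-fold against pMT-10 without zinc. Pdcd1 also rose in CD4 cells, by 1.78 (SE 0.42, adjusted p = 0.0074) against pMT-10 without zinc and by 1.40 (SE 0.42, adjusted p = 0.0284) against C57BL/6. That last call ended without C57BL/6 CD4 replicate 1 (adjusted p = 0.0822) or 2 (0.128) and on leaving out zinc-fed pMT-10 CD4 replicate 1 (0.0765) or 3 (0.0905). Ranked by mean CPM, zinc-fed pMT-10 CD4 cells came first and stood apart from the next group. The libraries of C57BL/6 CD4, zinc-fed pMT-10 CD8 and no-zinc pMT-10 CD4 cells overlapped their neighbours in that order, and both control CD8 groups came last and overlapped each other.

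Cd274 (chr19:29362107-29388095) encodes PD-L1, the ligand of PD-1, which T cells can carry themselves and which interferon gamma is known to induce. It stood at 89.7, 104 and 106 CPM in zinc-fed pMT-10 CD4 cells, against 64.7, 80.7 and 52.6 CPM without zinc and 66.6, 50.5 and 72.0 CPM in C57BL/6 mice. It stood at 105, 72.1 and 98.0 CPM in zinc-fed pMT-10 CD8 cells, against 26.9, 25.5 and 28.3 CPM without zinc and 22.6, 25.2 and 25.0 CPM in C57BL/6 mice. The CD8 controls were tight and low and the zinc-fed pMT-10 CD8 libraries reached the level of the zinc-fed pMT-10 CD4 libraries, which overlapped them. Cd274 rose in CD8 cells by 1.92 (SE 0.18, adjusted p = 6.82e-07) against C57BL/6 and by 1.77 (SE 0.18, adjusted p = 1.72e-06) against pMT-10 without zinc, 3.78-fold and 3.41-fold of mean CPM. The rise in CD4 cells was smaller, 0.67 (SE 0.18, adjusted p = 0.00982) against C57BL/6 and 0.60 (SE 0.17, adjusted p = 0.019) against pMT-10 without zinc. The CD4 call against C57BL/6 ended without C57BL/6 CD4 replicate 2 (adjusted p = 0.0726). The call against pMT-10 without zinc ended without no-zinc CD4 replicate 1 (0.0639) or 3 (0.120), on leaving out zinc-fed pMT-10 CD4 replicate 3 (0.0755), and when libraries were scaled by their totals alone (0.0796).

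Ctla4 (chr1:60909025-60915832) encodes the receptor that takes the ligands Cd80 and Cd86 away from the costimulatory receptor Cd28, and it is the member that moved in opposite directions in the 2 cell types. In CD4 cells it was at 102, 83.0 and 85.7 CPM in zinc-fed pMT-10 mice, against 239, 218 and 231 CPM without zinc and 174, 196 and 276 CPM in C57BL/6 mice. In CD8 cells it was at 15.2, 6.31 and 11.1 CPM in zinc-fed pMT-10 mice, against 2.16, 2.63 and 1.70 CPM without zinc and 2.75, 0.654 and 2.81 CPM in C57BL/6 mice. All 3 zinc-fed pMT-10 libraries were the low ones in CD4 cells and the high ones in CD8 cells, and the groups did not overlap in either. Ctla4 fell in CD4 cells, with a log2 fold change of -1.25 (SE 0.26, adjusted p = 0.00177) against C57BL/6 and -1.35 (SE 0.26, adjusted p = 0.000939) against pMT-10 without zinc. It rose in CD8 cells by 2.35 (SE 0.34, adjusted p = 0.000132) against C57BL/6 and by 2.37 (SE 0.34, adjusted p = 9.71e-05) against pMT-10 without zinc, 5.25-fold and 5.02-fold of mean CPM. All 4 calls held under each of the 15 other settings run for them. Those include a joint omission of the zinc-fed pMT-10 CD4 and CD8 libraries of lowest Lag3, added after seeing the data. The order of the 6 groups put both CD4 controls first, overlapping each other, then zinc-fed pMT-10 CD4, then zinc-fed pMT-10 CD8, each apart from the next, then both CD8 controls, which overlapped. Its RefSeq promoter window, 250 bases before to 50 after the start (chr1:60908775-60909074, plus strand, GRCm38.p6), is shown because of this split. Capitals mark the letters GGAAAA, the core that NFAT factors of T cell activation bind, read here on the minus strand as TTTTCC 145 to 140 bases before the start:
Ctla4: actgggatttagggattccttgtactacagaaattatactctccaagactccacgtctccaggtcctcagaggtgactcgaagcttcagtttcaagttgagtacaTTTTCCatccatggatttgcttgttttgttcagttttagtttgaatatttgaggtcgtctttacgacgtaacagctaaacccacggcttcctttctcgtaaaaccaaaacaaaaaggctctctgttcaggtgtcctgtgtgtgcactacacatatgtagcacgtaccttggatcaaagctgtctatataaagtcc
The letters GGAAAA on either strand are in 23.4% of 32851 RefSeq mouse windows of this length, so the match is a description. Whether NFAT binds there was not tested.

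**Figure D2:**
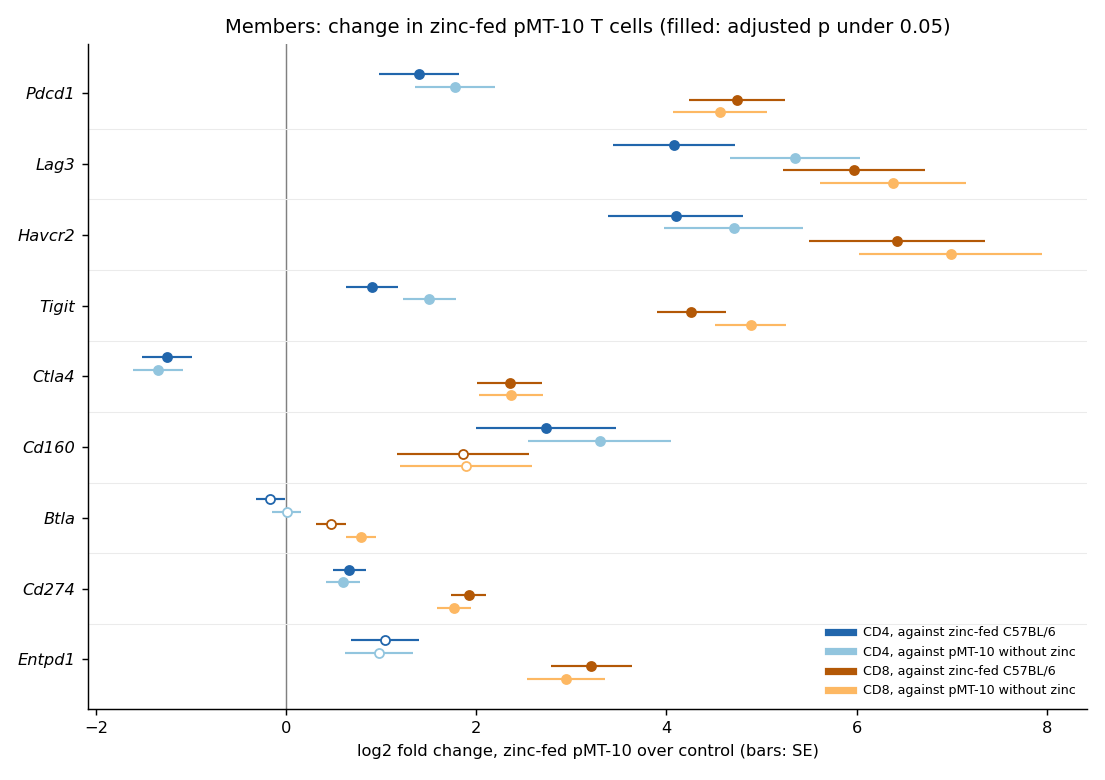
Log2 fold change of each member in zinc-fed pMT-10 cells over each control, by cell type; points are fitted values, bars are standard errors (n = 3 per group) and filled points have an adjusted p under 0.05. Ctla4 lies left of 0 in CD4 cells (-1.25 and -1.35) and right of 0 in CD8 cells (2.35 and 2.37), and Btla lies nearest 0.

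Lag3 (chr6:124904359-124912434) encodes a CD4-like receptor that binds MHC class II. It was at 703, 318 and 783 CPM in zinc-fed pMT-10 CD4 cells, against 9.82, 23.8 and 10.4 CPM without zinc and 33.1, 12.1 and 61.7 CPM in C57BL/6 mice. The CD8 cells gave 237, 107 and 279 CPM in zinc-fed pMT-10 mice, against 3.67, 3.41 and 0.742 CPM without zinc and 2.40, 4.67 and 2.94 CPM in C57BL/6 mice. No zinc-fed pMT-10 library came near a control library of its cell type, yet replicate 2 had less than the other 2 in both cell types. Against pMT-10 without zinc, Lag3 rose by 5.35 (SE 0.68, adjusted p = 7.99e-05) in CD4 cells and by 6.38 (SE 0.77, adjusted p = 0.000102) in CD8 cells, 41.0-fold and 79.5-fold of mean CPM. Against C57BL/6 it rose by 4.08 (SE 0.64, adjusted p = 0.000464) in CD4 cells and by 5.97 (SE 0.75, adjusted p = 0.000161) in CD8 cells. The CD4 ratio of mean CPM to C57BL/6 was 16.9-fold with all libraries and 26.6-fold without C57BL/6 CD4 replicate 3. All 4 calls held under each of the 15 other settings, of which the joint omission was picked on Lag3 and so says nothing about its stability. Both zinc-fed pMT-10 groups led the order of groups and stood apart from all others, CD4 above CD8.

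Havcr2 (chr11:46454931-46481255) encodes TIM-3, a receptor of T cells and myeloid cells that is known from T cells under lasting stimulation. In CD4 cells it was at 26.6, 11.2 and 26.2 CPM in zinc-fed pMT-10 mice, against 0.646, 1.12 and 0.636 CPM without zinc and 0.608, 1.39 and 1.73 CPM in C57BL/6 mice. In CD8 cells it was at 11.3, 1.51 and 16.2 CPM in zinc-fed pMT-10 mice, against 0, 0.0976 and 0.106 CPM without zinc and 0, 0 and 0.268 CPM in C57BL/6 mice. Replicate 2 of the zinc-fed pMT-10 CD8 group was far below its 2 fellows and still above all 6 control libraries, 3 of which had no count. Havcr2 rose in CD4 cells by 4.10 (SE 0.71, adjusted p = 0.000302) against C57BL/6 and by 4.71 (SE 0.73, adjusted p = 9.33e-05) against pMT-10 without zinc, 17.2-fold and 26.6-fold of mean CPM. It rose in CD8 cells too, with adjusted p = 0.0001 against C57BL/6 and adjusted p = 5.85e-05 against pMT-10 without zinc. There the size is known only roughly. The pooled CD8 counts were 370 in zinc-fed pMT-10 libraries against 3 without zinc, a ratio of 152 per effective library size with a 95% counting interval of 51.6 to 741. Against the 4 counts of the C57BL/6 CD8 libraries the ratio was 95.8, with an interval of 37.1 to 353. The ratio of mean CPM of the CD8 groups was 108 against C57BL/6 and 143 against pMT-10 without zinc, and on leaving out zinc-fed pMT-10 CD8 replicate 3 it was 71.5 and 94.1. Without C57BL/6 CD8 replicate 3 that group had no count. The 4 calls held under each of the 15 other settings. The Havcr2 window (chr11:46454681-46454980, plus strand, GRCm38.p6, RefSeq) is shown as that of the member with the largest fitted change in CD8 cells. Capitals mark TGATTCA, a match to TGANTCA, the letters that AP-1 factors bind, 200 to 194 bases before the start on both strands:
Havcr2: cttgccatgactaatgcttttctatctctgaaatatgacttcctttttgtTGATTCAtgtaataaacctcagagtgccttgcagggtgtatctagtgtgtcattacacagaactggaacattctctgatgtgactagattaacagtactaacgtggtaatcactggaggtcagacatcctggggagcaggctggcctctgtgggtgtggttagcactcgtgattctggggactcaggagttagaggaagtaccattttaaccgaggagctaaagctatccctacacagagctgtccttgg
Of all windows, 7.81% hold TGANTCA on either strand.

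Tigit (chr16:43626137-43665125) encodes the receptor that competes with the costimulatory receptor Cd226 for the poliovirus receptor family. CD4 libraries had 168, 139 and 154 CPM in zinc-fed pMT-10 mice, against 49.9, 57.7 and 54.8 CPM without zinc and 120.4, 57.7 and 68.6 CPM in C57BL/6 mice. CD8 libraries had 39.8, 20.6 and 54.7 CPM in zinc-fed pMT-10 mice, against 1.83, 1.17 and 0.901 CPM without zinc and 2.32, 1.40 and 2.21 CPM in C57BL/6 mice. The groups did not overlap, and C57BL/6 CD4 replicate 1 was the control library nearest to the zinc-fed pMT-10 CD4 libraries. The rise in CD8 cells was 4.26 (SE 0.36, adjusted p = 2.76e-07) against C57BL/6 and 4.89 (SE 0.37, adjusted p = 1.52e-07) against pMT-10 without zinc, 19.4-fold and 29.5-fold of mean CPM. In CD4 cells the rise was 1.51 (SE 0.28, adjusted p = 0.000664) against pMT-10 without zinc and 0.90 (SE 0.28, adjusted p = 0.0264) against C57BL/6. Only the last of these 4 calls ended under any of the settings run: without C57BL/6 CD4 replicate 2 (adjusted p = 0.139) or 3 (0.0940), on leaving out zinc-fed pMT-10 CD4 replicate 1 (0.0867) or 3 (0.0655), and when libraries were scaled by their totals alone (0.0504). The Tigit window (chr16:43664135-43664434, minus strand, GRCm38.p6, RefSeq) is set beside that of Ctla4 because both hold the NFAT core letters. Of the 10 windows of the members 3 hold them, those of Ctla4 and Tigit and 1 of Entpd1, where 23.4% of all windows do. Ctla4 and Tigit moved in opposite directions in CD4 cells. The Tigit match lies 14 to 9 bases before the start, and in both windows GGAAAA reads on the strand opposite to the gene:
Tigit: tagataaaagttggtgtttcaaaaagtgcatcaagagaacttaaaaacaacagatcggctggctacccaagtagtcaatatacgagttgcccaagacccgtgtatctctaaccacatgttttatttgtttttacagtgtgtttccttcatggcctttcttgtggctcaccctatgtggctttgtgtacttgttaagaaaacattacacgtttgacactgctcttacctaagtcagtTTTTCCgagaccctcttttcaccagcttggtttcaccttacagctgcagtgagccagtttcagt

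Btla and Cd160 both bind Tnfrsf14, also called HVEM. Btla (chr16:45223705-45252895), a receptor of resting T and B cells, was the member that moved least. It was at 111, 133 and 112 CPM in zinc-fed pMT-10 CD4 cells, against 121, 127 and 107 CPM without zinc and 128, 171 and 99.5 CPM in C57BL/6 mice. Its CD8 values were 110.1, 126 and 123 CPM in zinc-fed pMT-10 mice, against 69.5, 73.0 and 65.5 CPM without zinc and 84.2, 86.3 and 89.1 CPM in C57BL/6 mice. The CD4 groups overlapped throughout, and the CD8 groups did not overlap. In CD4 cells Btla did not pass the test, with a log2 fold change of -0.17 (SE 0.16, adjusted p = 0.51) against C57BL/6 and 0.00 (SE 0.16, adjusted p = 0.989) against pMT-10 without zinc. In CD8 cells it rose by 0.79 (SE 0.16, adjusted p = 0.00241) against pMT-10 without zinc, a call that held under the 15 other settings, and did not pass against C57BL/6, at 0.47 (SE 0.16, adjusted p = 0.067). DESeq2 called that last difference (adjusted p = 0.0333), as did scaling by library totals alone (0.0421).

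Cd160 (chr3:96798763-96829351) encodes a receptor of memory CD8 cells and natural killer cells. CD4 libraries of zinc-fed pMT-10 mice had 2.94, 1.95 and 2.47 CPM, against 0.323, 0.213 and 0.191 CPM without zinc and 0.152, 0.618 and 0.314 CPM in C57BL/6 mice. CD8 libraries of zinc-fed pMT-10 mice had 3.84, 1.88 and 3.73 CPM, against 0.917, 0.878 and 0.742 CPM without zinc and 0.601, 0.841 and 1.14 CPM in C57BL/6 mice. The zinc-fed pMT-10 libraries were above the controls in both cell types, at few counts: 100 pooled CD4 counts in zinc-fed pMT-10 mice against 12 without zinc and 14 in C57BL/6 mice. Cd160 rose in CD4 cells by 3.30 (SE 0.75, adjusted p = 0.00341) against pMT-10 without zinc and by 2.74 (SE 0.74, adjusted p = 0.0116) against C57BL/6. The second call ended without C57BL/6 CD4 replicate 1 (adjusted p = 0.0573) and with no filter on low counts (0.0522), and its ratio of mean CPM, 6.79-fold, was 10.5-fold without C57BL/6 CD4 replicate 2. In CD8 cells Cd160 did not pass, at 1.86 (SE 0.70, adjusted p = 0.103) against C57BL/6 and 1.89 (SE 0.69, adjusted p = 0.106) against pMT-10 without zinc, although DESeq2 called both (adjusted p = 0.0324 and 0.0278). Cd160 was the one member that ranked higher in CD8 than in CD4 cells in all 3 kinds of mice by mean CPM. One of its RefSeq windows (chr3:96814472-96814771, minus strand, GRCm38.p6) is shown because it alone among the 10 windows of the members held a match to the STAT letters TTCNNNGAA, 234 to 226 bases before the start, and one to the T-box letters GGTGTGA, 189 to 183 bases before it, both in capitals:
Cd160: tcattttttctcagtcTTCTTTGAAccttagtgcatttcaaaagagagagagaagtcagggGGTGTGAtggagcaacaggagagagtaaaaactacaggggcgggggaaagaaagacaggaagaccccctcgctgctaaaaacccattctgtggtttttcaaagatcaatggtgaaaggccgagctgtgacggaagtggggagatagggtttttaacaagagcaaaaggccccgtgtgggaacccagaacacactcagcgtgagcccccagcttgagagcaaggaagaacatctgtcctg
The STAT letters are in 8.30% of all windows and the T-box letters in 3.98%, each on either strand. The interferon-stimulated response element was matched in none of the 10 windows of the members, and in 3.44% of all windows.

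Entpd1 (chr19:40612366-40741602) encodes CD39, the surface enzyme that begins the breakdown of extracellular ATP toward adenosine. It was at 115, 86.9 and 138 CPM in zinc-fed pMT-10 CD4 cells, against 64.9, 57.2 and 50.9 CPM without zinc and 54.2, 47.9 and 63.3 CPM in C57BL/6 mice. The CD8 libraries held 30.5, 10.8 and 55.8 CPM in zinc-fed pMT-10 mice, against 2.56, 5.56 and 4.72 CPM without zinc and 3.35, 3.08 and 4.02 CPM in C57BL/6 mice. Neither cell type had an overlap, and the zinc-fed pMT-10 CD8 libraries were spread widely, with replicate 3 the highest. Entpd1 rose in CD8 cells by 3.21 (SE 0.43, adjusted p = 6.17e-05) against C57BL/6 and by 2.94 (SE 0.41, adjusted p = 0.000112) against pMT-10 without zinc. As a ratio of mean CPM this was 9.31-fold and 7.58-fold, and on leaving out zinc-fed pMT-10 CD8 replicate 3 it was 5.94-fold and 4.84-fold. In CD4 cells it did not pass, at 1.04 (SE 0.36, adjusted p = 0.0507) against C57BL/6 and 0.97 (SE 0.36, adjusted p = 0.0661) against pMT-10 without zinc. Fits to CD4 libraries alone called both (adjusted p = 0.000311 and 0.000467), as did DESeq2 (0.0182 and 0.0270).

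The next comparison asked whether CD8 and CD4 cells changed by the same amount on the log2 scale. In control mice the members were mostly genes of CD4 cells: 8 of 9 were lower in CD8 than in CD4 cells of C57BL/6 mice, all but Cd160, and the same 8 were lower in pMT-10 mice without zinc. Of all genes tested, 12.9% were lower in CD8 cells of C57BL/6 mice and 12.8% in those of pMT-10 mice without zinc. In zinc-fed pMT-10 mice 4 members were lower in CD8 cells, Pdcd1, Tigit, Ctla4 and Entpd1, where 14.7% of all genes were. Ctla4 had the largest gap of the 9 in each kind of mouse, with a CD8 minus CD4 log2 difference of -3.05 in zinc-fed pMT-10 mice, -6.76 without zinc and -6.65 in C57BL/6 mice. Tigit stood at -2.00 in zinc-fed pMT-10 mice, -5.38 without zinc and -5.36 in C57BL/6 mice, and Cd274 at -0.12, -1.29 and -1.38 in the same order of mice. Pdcd1 stood at -1.65 in zinc-fed pMT-10 mice and -4.44 in pMT-10 mice without zinc. Entpd1 stood at -1.80 in zinc-fed pMT-10 mice, -3.77 without zinc and -3.97 in C57BL/6 mice. The Cd274 gap in zinc-fed pMT-10 mice did not pass (adjusted p = 0.635), and neither did that of Lag3 (0.0613). The Lag3 gap in zinc-fed pMT-10 mice was called on leaving out zinc-fed pMT-10 CD4 replicate 2 (0.0392). Of the control gaps, that of Lag3 without zinc ended without no-zinc CD4 replicate 2 or CD8 replicate 2 or 3 (0.0529 to 0.0898), that of Btla in C57BL/6 mice without C57BL/6 CD4 replicate 2 (0.0716), and that of Havcr2 in C57BL/6 mice without C57BL/6 CD4 replicate 3 or CD8 replicate 1 or 2 (0.0501 to 0.0624). The Havcr2 gap without zinc ended without no-zinc CD4 replicate 2 or any no-zinc CD8 replicate (0.0558 to 0.0948).

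The order of the 6 groups by mean CPM differed between members. Tigit was highest in zinc-fed pMT-10 CD4 cells, then in C57BL/6 CD4 cells. No-zinc pMT-10 CD4 and zinc-fed pMT-10 CD8 cells followed and overlapped, above both CD8 controls, which overlapped each other. Entpd1 was highest in zinc-fed pMT-10 CD4 cells, apart from all others. Its no-zinc CD4, C57BL/6 CD4 and zinc-fed pMT-10 CD8 libraries overlapped their neighbours, and both CD8 controls were lowest and overlapped. Havcr2 and Cd274 led in zinc-fed pMT-10 CD4 cells with zinc-fed pMT-10 CD8 cells next, and those overlapped. For Havcr2 the C57BL/6 CD4 libraries overlapped the zinc-fed pMT-10 CD8 libraries and the no-zinc CD4 libraries, and for Cd274 the no-zinc CD4 libraries overlapped the zinc-fed pMT-10 CD8 and the C57BL/6 CD4 libraries. The CD8 controls of both genes stood apart below the CD4 controls. Cd160 formed 3 pairs of overlapping groups, both zinc-fed pMT-10 groups first, then both CD8 controls, then both CD4 controls. Btla overlapped across zinc-fed pMT-10 CD8 cells and all CD4 groups, with C57BL/6 CD8 and then no-zinc CD8 cells below and apart.

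The difference between the CD8 and the CD4 log2 fold change was itself tested, and 5 members passed against each control. These were Pdcd1, Tigit, Ctla4, Cd274 and Entpd1, all with the higher log2 fold change in CD8 cells. Among all genes tested, 3.41% passed in that direction against C57BL/6 and 2.44% against pMT-10 without zinc. In CPM the order was not the same for all. From C57BL/6 to zinc-fed pMT-10 mice, mean Pdcd1 went from 244 to 641 CPM in CD4 and from 7.62 to 204 CPM in CD8 cells. Tigit (82.3 to 154 and 1.98 to 38.4 CPM) and Entpd1 (55.1 to 113 and 3.48 to 32.4 CPM) also rose more in CD4 cells in CPM. Cd274 (63.0 to 100 and 24.3 to 91.7 CPM) rose more in CD8 cells on both scales. Ctla4 differed most, by 3.60 (SE 0.43, adjusted p = 0.000107) on the log2 scale against C57BL/6 and 3.71 (SE 0.43, adjusted p = 6.16e-05) against pMT-10 without zinc. Tigit differed by 3.36 (SE 0.45, adjusted p = 0.000327) and 3.38 (SE 0.46, adjusted p = 0.000254) against the same controls in that order. For Pdcd1 the difference was 3.34 (SE 0.63, adjusted p = 0.00696) against C57BL/6 and 2.79 (SE 0.62, adjusted p = 0.022) against pMT-10 without zinc, and for Cd274 it was 1.25 (SE 0.25, adjusted p = 0.00636) and 1.17 (SE 0.25, adjusted p = 0.0124). The difference of Entpd1 was 2.17 (SE 0.55, adjusted p = 0.0263) against C57BL/6 and 1.97 (SE 0.54, adjusted p = 0.0474) against pMT-10 without zinc. Lag3 did not pass, at 1.89 (SE 0.90, adjusted p = 0.246) and 1.03 (SE 0.92, adjusted p = 0.594), nor did Havcr2, at 2.33 (SE 1.19, adjusted p = 0.267) and 2.28 (SE 1.24, adjusted p = 0.336), and a p above the threshold does not show an equal change. Btla did not pass either, at 0.63 (SE 0.22, adjusted p = 0.0964) against C57BL/6 and 0.78 (SE 0.22, adjusted p = 0.0503) against pMT-10 without zinc. The first was called in 2 of 19 other settings, library totals alone (adjusted p = 0.0353) and omission of C57BL/6 CD4 replicate 3 (0.0186). The second was called in 5 of 19: DESeq2 (0.0184), library totals alone (0.0155), no filter (0.0348), a stricter filter (0.0486) and omission of zinc-fed pMT-10 CD4 replicate 2 (0.0303). Cd160 had the opposite sign and did not pass, at -0.88 (SE 0.98, adjusted p = 0.65) and -1.41 (SE 0.98, adjusted p = 0.473). The Ctla4 and Tigit differences held under each of the 19 other settings run, among them the joint omission of the libraries of lowest Lag3. Against pMT-10 without zinc, that of Pdcd1 ended without no-zinc CD4 replicate 2 or 3, no-zinc CD8 replicate 3, zinc-fed pMT-10 CD4 replicate 1 or zinc-fed pMT-10 CD8 replicate 1 (adjusted p = 0.0508 to 0.0643), and that of Cd274 on leaving out zinc-fed pMT-10 CD4 replicate 1 (0.0539). The Entpd1 difference against pMT-10 without zinc ended in 11 of 12 such omissions, all but that of zinc-fed pMT-10 CD8 replicate 2 (0.0639 to 0.116). Against C57BL/6 it ended without C57BL/6 CD4 replicate 1, any C57BL/6 CD8 replicate, zinc-fed pMT-10 CD4 replicate 1 or zinc-fed pMT-10 CD8 replicate 3 (0.0508 to 0.0702).

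**Figure D3:**
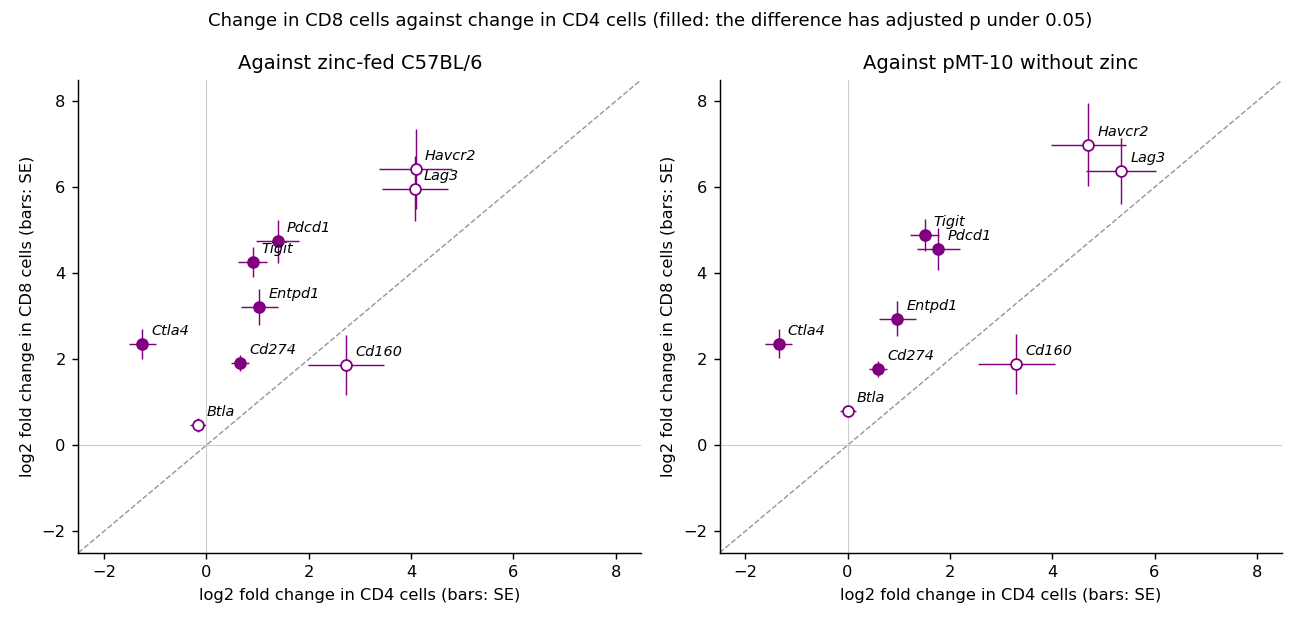
Log2 fold change in CD8 cells (vertical) against that in CD4 cells (horizontal) of zinc-fed pMT-10 mice over zinc-fed C57BL/6 (left) and over pMT-10 without zinc (right), with standard errors as bars and equal change as a dashed line. Filled points, Pdcd1, Tigit, Ctla4, Cd274 and Entpd1, are members whose difference between cell types passed, and all 5 lie above the line.

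The control groups were compared with each other as well. Between pMT-10 mice without zinc and zinc-fed C57BL/6 mice edgeR's quasi-likelihood test and DESeq2 each called 0 members in either cell type, where edgeR called 0.141% of all genes in CD4 cells and 0.0972% in CD8 cells. Tigit in CD4 cells was the only member with an unadjusted p under 0.05 (0.0423), at a log2 difference of -0.60. The largest difference in size was that of Lag3 in CD4 cells, -1.27, which, of the settings run, was called only with no filter on low counts. The comparisons with the 2 controls share the zinc-fed pMT-10 libraries, so their similar values are not independent of each other.

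Ctla4, Tigit and Entpd1 are also genes of regulatory T cells, so their CD4 values are set beside Foxp3, the factor that defines those cells. Foxp3 was at 858, 1295 and 735 CPM in zinc-fed pMT-10 CD4 cells, against 1702, 1321 and 1688 CPM without zinc and 1618, 1634 and 1716 CPM in C57BL/6 mice. All 3 zinc-fed pMT-10 values were below all 6 control values, and the difference did not pass, at -0.78 (SE 0.36, adjusted p = 0.151) against C57BL/6 and -0.71 (SE 0.36, adjusted p = 0.196) against pMT-10 without zinc. Of a list of 7 regulatory T cell markers, 3 were lower in zinc-fed pMT-10 CD4 cells against each control, where 9.4% of all genes tested were. The summed level of the list was 991 to 1991 CPM in zinc-fed pMT-10 libraries, against 2290 to 2722 CPM without zinc and 2690 to 2717 CPM in C57BL/6 libraries. The ratio of Ctla4 to Foxp3 counts was 0.0641 to 0.119 in zinc-fed pMT-10 libraries, against 0.137 to 0.165 without zinc and 0.108 to 0.161 in C57BL/6 libraries, so the groups overlapped only with C57BL/6. The ratio of Tigit to Foxp3 was 0.108 to 0.210 in zinc-fed pMT-10 libraries, against 0.0293 to 0.0437 without zinc and 0.0353 to 0.0744 in C57BL/6 libraries. That of Entpd1 to Foxp3 was 0.0671 to 0.188 in zinc-fed pMT-10 libraries, against 0.0302 to 0.0433 without zinc and 0.0293 to 0.0369 in C57BL/6 libraries. Between groups, Ctla4 was low in the same CD4 libraries as the regulatory list, and Tigit and Entpd1 were high in them. Within the zinc-fed pMT-10 CD4 group the order was another. There replicate 2 had the highest Foxp3 (1295 CPM) and the lowest Ctla4 (83.0 CPM), Tigit (139 CPM) and Entpd1 (86.9 CPM). The part of regulatory T cells in the Ctla4 result was not tested.

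**Figure D4:**
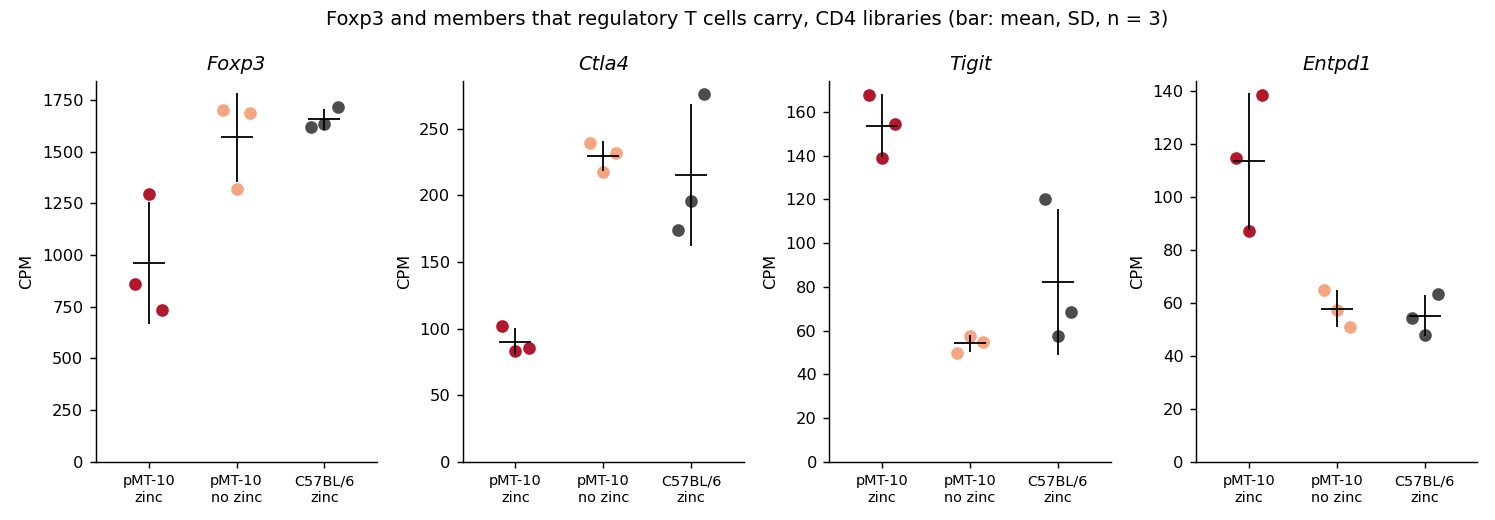
CPM of Foxp3, Ctla4, Tigit and Entpd1 in the 9 CD4 libraries; points are libraries, dashes are means and bars are SD (n = 3 per group), and axes start at 0. Zinc-fed pMT-10 libraries are the lowest for Foxp3 (735 to 1295) and Ctla4 (83.0 to 102) and the highest for Tigit (139 to 168) and Entpd1 (86.9 to 138).

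Havcr2, Cd274 and Entpd1 are carried by myeloid cells as well, so markers of those cells were read beside them. In CD4 libraries the summed level of 8 monocyte and macrophage markers was 174 to 222 CPM in zinc-fed pMT-10 mice, against 77.9 to 114 CPM without zinc and 60.9 to 83.7 CPM in C57BL/6 mice, and Ccr2, which T cells also carry, gave most of its counts. In CD8 libraries the sum was 32.8 to 49.4 CPM in zinc-fed pMT-10 mice, against 14.5 to 24.1 CPM without zinc and 13.9 to 20.5 CPM in C57BL/6 mice, with Cd68 giving the largest part. Of the defining markers, these were at or near 0 in every library: Csf1r had 0 to 7 counts, Adgre1 0 to 2, Fcgr1 0 to 1, Cd14 0 to 11 and Lyz2 0 to 38. Sums of 8 dendritic cell markers, most of them counts of Irf8 and Bst2, were 282 to 305 CPM in CD8 libraries of zinc-fed pMT-10 mice, against 135 to 179 CPM without zinc and 164 to 241 CPM in C57BL/6 mice. In CD4 libraries they were 235 to 342 CPM in zinc-fed pMT-10 mice, against 181 to 209 CPM without zinc and 174 to 184 CPM in C57BL/6 mice. Flt3 and Xcr1 had no count in zinc-fed pMT-10 CD4 libraries, and Flt3 and Cd209a none in no-zinc CD4 libraries. In C57BL/6 CD4 libraries Cd209a had none. In CD8 libraries Flt3 had counts in zinc-fed pMT-10 mice and none in either control. Of 4 dendritic markers tested, 1 was higher in each of the 4 comparisons, and 1 was lower in CD4 cells against pMT-10 without zinc. Of all genes tested, 9.29% and 9.38% were higher in CD4 cells against C57BL/6 and pMT-10 without zinc, and 5.68% and 5.1% in CD8 cells. Sums of 8 natural killer cell markers, a type that carries Cd160 and Tigit, were 69.6 to 80.4 CPM in CD4 libraries of zinc-fed pMT-10 mice, against 193 to 226 CPM without zinc and 48.7 to 65.7 CPM in C57BL/6 mice. Klrb1f gave most of the zinc-fed pMT-10 CD4 sum (mean 63.0 CPM), and Ncr1, Klra8 and Klra4 had no count there. Of 5 tested, 1 was higher and 3 lower in those cells against C57BL/6, and 1 higher and 4 lower against pMT-10 without zinc. Of all genes tested, 9.4% were lower against each control. In CD8 libraries the natural killer sums were 50.9 to 90.4 CPM in zinc-fed pMT-10 mice, against 67.4 to 122 CPM without zinc and 75.9 to 114 CPM in C57BL/6 mice. The part of such cells in the results was not tested.

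Lists of other cell types moved with the CD4 groups as well. The sum of 6 T cell genes, Cd3e, Cd3d and Cd3g among them, was 6265 to 7638 CPM in zinc-fed pMT-10 CD4 libraries, against 3960 to 4109 CPM without zinc and 4218 to 5113 CPM in C57BL/6 mice. In CD8 libraries it was 4406 to 5411 CPM in zinc-fed pMT-10 mice, against 4771 to 5162 CPM without zinc and 5286 to 5406 CPM in C57BL/6 mice. Sums of 7 B cell markers were 6.59 to 22.1 CPM in zinc-fed pMT-10 CD4 libraries, against 29.9 to 37.3 CPM without zinc and 26.9 to 32.4 CPM in C57BL/6 mice, most of them counts of Cd79b, and Pax5 and Fcer2a had no count in any group. Sums of 6 genes of gamma-delta and innate-like T cells were 2.85 to 6.85 CPM in zinc-fed pMT-10 CD4 libraries, against 18.7 to 25.4 CPM without zinc and 7.90 to 14.2 CPM in C57BL/6 mice. Both lists were thus lowest in zinc-fed pMT-10 CD4 cells, with no overlap. In CD8 libraries the B cell sums were 25.7 to 45.9 CPM in zinc-fed pMT-10 mice, against 33.8 to 57.9 CPM without zinc and 43.4 to 53.1 CPM in C57BL/6 mice, and the gamma-delta sums were under 1 CPM in every library.

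Platelet and megakaryocyte markers, 6 genes, set 1 library apart. Their sum was 188 CPM in zinc-fed pMT-10 CD4 replicate 3, mostly through Pf4 and Ppbp, where the median of its group was 25.3 CPM, against 59.8 to 72.0 CPM without zinc and 55.8 to 67.0 CPM in C57BL/6 mice. Without that library 5 members were called in CD4 cells against C57BL/6 and 6 against pMT-10 without zinc, in place of 7 each. In CD8 libraries the sum was 10.7 to 15.4 CPM in zinc-fed pMT-10 mice, against 17.4 to 21.4 CPM without zinc and 13.4 to 14.8 CPM in C57BL/6 mice. Sums of 9 neutrophil markers were 3.07 to 4.8 CPM in zinc-fed pMT-10 CD4 libraries, against 0.907 to 1.55 CPM without zinc and 1.44 to 2.55 CPM in C57BL/6 mice, and in CD8 libraries 0.341 to 14.9 CPM, against 0.195 to 1.70 CPM without zinc and 0.268 to 1.5 CPM in C57BL/6 mice. Erythroid markers, 3 genes, summed to 3.90 CPM or less in every library. Plasma cell markers, 5 genes of which Xbp1 gave most of the counts, summed to 164 to 190 CPM in zinc-fed pMT-10 CD4 libraries, against 152 to 165 CPM without zinc and 155 to 160 CPM in C57BL/6 mice. In CD8 libraries they summed to 95.5 to 99.5 CPM in zinc-fed pMT-10 mice, against 62.7 to 88.4 CPM without zinc and 67.8 to 116 CPM in C57BL/6 mice. What these sums contribute to the members' values was not tested.

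Among 14 ligands and binding partners on the panel, 10 were tested. In CD4 cells 1 rose against C57BL/6, and 1 rose and 1 fell against pMT-10 without zinc, while in CD8 cells 1 rose against C57BL/6 and 2 against pMT-10 without zinc. Of all genes tested in CD4 cells, 9.29% were higher against C57BL/6 and 9.38% against pMT-10 without zinc, and 9.4% were lower against each. In CD8 cells 5.68% and 5.1% were higher against the same controls in that order. Cd80, a ligand of Ctla4, Cd28 and PD-L1, had fold changes of the same signs as Ctla4 in both cell types. It was at 5.03, 3.46 and 4.87 CPM in zinc-fed pMT-10 CD4 cells, against 13.5, 12.2 and 13.2 CPM without zinc and 8.97, 10.6 and 10.8 CPM in C57BL/6 mice. Its CD8 values were 0.768, 1.22 and 2.05 CPM in zinc-fed pMT-10 mice, against 0, 0.0976 and 0 CPM without zinc and 0, 0 and 0.0669 CPM in C57BL/6 mice. Cd80 fell in CD4 cells against pMT-10 without zinc, at -1.54 (SE 0.42, adjusted p = 0.0115), and did not pass against C57BL/6, at -1.18 (SE 0.41, adjusted p = 0.0512). In CD8 cells it rose against both controls (adjusted p = 0.00013 against C57BL/6 and 7.6e-05 against pMT-10 without zinc), on 50 pooled counts against 1 in either control. The ratio per effective library size was 51.8 against C57BL/6 with a 95% counting interval of 8.88 to 2086, and 61.6 against pMT-10 without zinc with an interval of 10.6 to 2482. Tnfrsf14, the partner of Btla and Cd160, rose in CD4 cells by 1.01 (SE 0.16, adjusted p = 0.000117) against C57BL/6 and 1.12 (SE 0.16, adjusted p = 3.8e-05) against pMT-10 without zinc, and in CD8 cells did not pass, at 0.13 and 0.13. H2-Aa, an MHC class II chain and so a partner of Lag3, was at 2.22, 0.565 and 1.76 CPM in zinc-fed pMT-10 CD8 cells, against 0, 0 and 0.0530 CPM without zinc, 1 count in all, and 0.343, 0.654 and 0 CPM in C57BL/6 mice. It was called against pMT-10 without zinc (adjusted p = 0.0293), a call that ended without any no-zinc CD8 replicate and on leaving out zinc-fed pMT-10 CD8 replicate 1 or 3 (0.0731 to 0.121). The list's medians were 0.64 and 0.83 against C57BL/6 in CD4 and in CD8 cells, and -0.15 and 0.88 against pMT-10 without zinc.

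Of 9 other coinhibitory receptors on the panel, 7 were tested. In CD8 cells 4 rose against each control, Cd101, Cd200r1, Cd244 and Klrg1, with list medians of 2.17 against C57BL/6 and 2.12 against pMT-10 without zinc. Of all genes tested, 5.68% were higher there against C57BL/6 and 5.1% against pMT-10 without zinc. Cd101, a receptor of the immunoglobulin family, rose in both cell types: by 2.75 (SE 0.39, adjusted p = 0.00018) in CD8 cells and 2.33 (SE 0.38, adjusted p = 0.000248) in CD4 cells against C57BL/6, and by 2.73 (SE 0.39, adjusted p = 0.000156) and 2.27 (SE 0.37, adjusted p = 0.0003) against pMT-10 without zinc. Cd244, a receptor of natural killer cells and memory CD8 cells, was at 29.8, 16.6 and 34.3 CPM in zinc-fed pMT-10 CD8 cells, against 1.57, 1.66 and 0.159 CPM without zinc and 0.944, 0.280 and 3.15 CPM in C57BL/6 mice. It rose there by 4.15 (SE 0.95, adjusted p = 0.00917) against C57BL/6 and 4.62 (SE 0.98, adjusted p = 0.00551) against pMT-10 without zinc. In CD4 cells it had 3.46, 1.15 and 7.72 CPM in zinc-fed pMT-10 mice, against 0, 0.907 and 1.15 CPM without zinc and 0, 0.463 and 0.314 CPM in C57BL/6 mice. It was called against C57BL/6 (adjusted p = 0.0164), which ended without C57BL/6 CD4 replicate 1 (0.0720) or zinc-fed pMT-10 CD4 replicate 3 (0.0808). Cd200r1, the receptor of the CD200 protein, split by cell type. It rose in CD8 cells by 2.17 (SE 0.24, adjusted p = 4.81e-06) against C57BL/6 and 2.37 (SE 0.24, adjusted p = 1.72e-06) against pMT-10 without zinc, and did not pass in CD4 cells, at -0.08 (SE 0.20, adjusted p = 0.839) and -0.04 (SE 0.20, adjusted p = 0.917). Klrg1, a receptor of cadherins on effector cells, rose in CD8 cells by 3.31 (SE 0.67, adjusted p = 0.0048) against C57BL/6 and 2.12 (SE 0.57, adjusted p = 0.0308) against pMT-10 without zinc, the second of which ended on leaving out zinc-fed pMT-10 CD8 replicate 1 or no-zinc CD8 replicate 2 or 3 (0.106 to 0.161). Lair1, a collagen receptor named after its values were seen, was the third of this list to rise in CD4 cells against C57BL/6 beside Cd101 and Cd244, by 1.74 (SE 0.27, adjusted p = 0.000114), and rose by 1.46 (SE 0.27, adjusted p = 0.000519) against pMT-10 without zinc. List medians in CD4 cells were 0.04 against C57BL/6 and 0.45 against pMT-10 without zinc.

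All 8 costimulatory receptors on the panel were tested, and members of the list were called in both directions. Tnfrsf9, or 4-1BB, which activated T cells carry, rose in all 4 comparisons: by 1.04 (SE 0.20, adjusted p = 0.000758) in CD4 cells and 1.34 (SE 0.21, adjusted p = 0.000222) in CD8 cells against C57BL/6, and by 1.21 (SE 0.20, adjusted p = 0.000169) and 1.10 (SE 0.21, adjusted p = 0.0014) against pMT-10 without zinc. Icos, a relative of Cd28, fell in CD4 cells, at a log2 fold change of -0.60 (SE 0.18, adjusted p = 0.0229) against C57BL/6 and -0.76 (SE 0.18, adjusted p = 0.00492) against pMT-10 without zinc. Cd40lg, with which helper cells act on B cells, fell in CD4 cells, at a log2 fold change of -0.85 (SE 0.26, adjusted p = 0.0219) against C57BL/6 and -0.83 (SE 0.25, adjusted p = 0.026) against pMT-10 without zinc. Both Cd40lg calls and the Icos call against C57BL/6 ended when zinc-fed pMT-10 CD4 replicate 1 or 3 was left out (adjusted p = 0.0689 to 0.140), and also without C57BL/6 CD4 replicate 1 or 2 (Cd40lg), C57BL/6 CD4 replicate 1 or 3 (Icos) or no-zinc CD4 replicate 1 or 2 (Cd40lg). The adhesion receptor Cd2 rose in CD4 cells only against pMT-10 without zinc, by 0.55 (SE 0.17, adjusted p = 0.0253), which ended in 5 of 6 single-library omissions, all but that of zinc-fed pMT-10 CD4 replicate 2 (0.0546 to 0.118). Outside the naming rule, and named after their values were seen, Cd226, the receptor that competes with Tigit for ligands, was called higher in CD4 cells against C57BL/6 (0.47), and Tnfrsf18, or GITR, lower in CD4 cells against pMT-10 without zinc (-0.46) and in CD8 cells against C57BL/6 (-0.46). Each of these 3 calls ended in at least 2 single-library omissions, that of Cd226 on leaving out zinc-fed pMT-10 CD4 replicate 1 or C57BL/6 CD4 replicate 1. Those of Tnfrsf18 ended on leaving out zinc-fed pMT-10 CD4 replicate 1 or 3 or no-zinc CD4 replicate 1 or 3 in CD4 cells, and without any zinc-fed pMT-10 CD8 replicate or C57BL/6 CD8 replicate 2 or 3 in CD8 cells. List medians were -0.29 and 0.02 against C57BL/6 in CD4 and CD8 cells, and -0.30 and -0.05 against pMT-10 without zinc.

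Entpd1 is the first enzyme of a pathway in which Nt5e, or CD73, makes adenosine and Adk removes it inside the cell. Of 9 further genes of the pathway on the panel 7 were tested, and 3 were called in CD4 cells, each against both controls. Among these, 1 was higher and 2 were lower. Of all genes tested, 9.29% were higher against C57BL/6 and 9.38% against pMT-10 without zinc, and 9.4% were lower against each. Nt5e fell in CD4 cells, at a log2 fold change of -1.60 (SE 0.16, adjusted p = 5.22e-07) against C57BL/6 and -1.58 (SE 0.16, adjusted p = 5.71e-07) against pMT-10 without zinc, opposite to the direction of the Entpd1 values. In CD8 cells Nt5e did not pass, at 0.07 (SE 0.15, adjusted p = 0.846) and -0.27 (SE 0.15, adjusted p = 0.319). Adk fell in CD4 cells, at a log2 fold change of -2.25 (SE 0.40, adjusted p = 0.000705) against C57BL/6 and -1.99 (SE 0.40, adjusted p = 0.00183) against pMT-10 without zinc, and the first was not called in a fit to the 2 groups alone (adjusted p = 0.0626). P2rx7, a channel opened by extracellular ATP, rose in both cell types. Its rise in CD8 cells was 2.51 (SE 0.27, adjusted p = 2.95e-06) against C57BL/6 and 2.23 (SE 0.26, adjusted p = 8.8e-06) against pMT-10 without zinc, and in CD4 cells 1.21 (SE 0.24, adjusted p = 0.000863) and 0.92 (SE 0.23, adjusted p = 0.00742). In replicates 1 to 3, P2rx7 was at 36.6, 24.8 and 38.2 CPM in zinc-fed pMT-10 CD8 cells, against 4.52, 7.71 and 9.01 CPM without zinc and 3.78, 6.45 and 7.23 CPM in C57BL/6 mice. List medians were -0.40 and 0.39 against C57BL/6 in CD4 and CD8 cells, and -0.33 and 0.15 against pMT-10 without zinc.

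Inside the cell, 12 genes that carry or trim these receptors' signals were all tested. Ptpn6, the phosphatase SHP-1, fell in CD4 cells, at a log2 fold change of -1.23 (SE 0.18, adjusted p = 3.75e-05) against C57BL/6 and -0.98 (SE 0.18, adjusted p = 0.000392) against pMT-10 without zinc. In CD8 cells it fell against C57BL/6, at -0.61 (SE 0.17, adjusted p = 0.0298), a call that ended in 5 of 6 single-library omissions, all but that of C57BL/6 CD8 replicate 2 (0.0530 to 0.0917). Adam17, a protease that sheds Lag3, rose in CD4 cells by 0.83 (SE 0.21, adjusted p = 0.00652) against C57BL/6 and 0.67 (SE 0.20, adjusted p = 0.0252) against pMT-10 without zinc. The adaptor Grb2 rose by 0.67 (SE 0.20, adjusted p = 0.0257) and 0.63 (SE 0.20, adjusted p = 0.0354) and the phosphatase Inpp5d by 0.41 (SE 0.12, adjusted p = 0.0231) and 0.42 (SE 0.12, adjusted p = 0.0212) in CD4 cells against the same controls in that order. The calls of Grb2 and Inpp5d, and that of Adam17 against pMT-10 without zinc, each ended in at least 3 single-library omissions (adjusted p = 0.0501 to 0.147). These were zinc-fed pMT-10 CD4 replicate 1 for all 5, replicate 3 for Grb2 and Adam17 and replicate 2 for Adam17, C57BL/6 CD4 replicates 1 and 2 for Grb2 and Inpp5d, and no-zinc CD4 replicates 1 to 3 for Grb2, 2 and 3 for Inpp5d and 1 and 2 for Adam17. List medians were 0.30 and -0.05 against C57BL/6 in CD4 and CD8 cells, and 0.23 and 0.03 against pMT-10 without zinc.

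**Figure D5:**
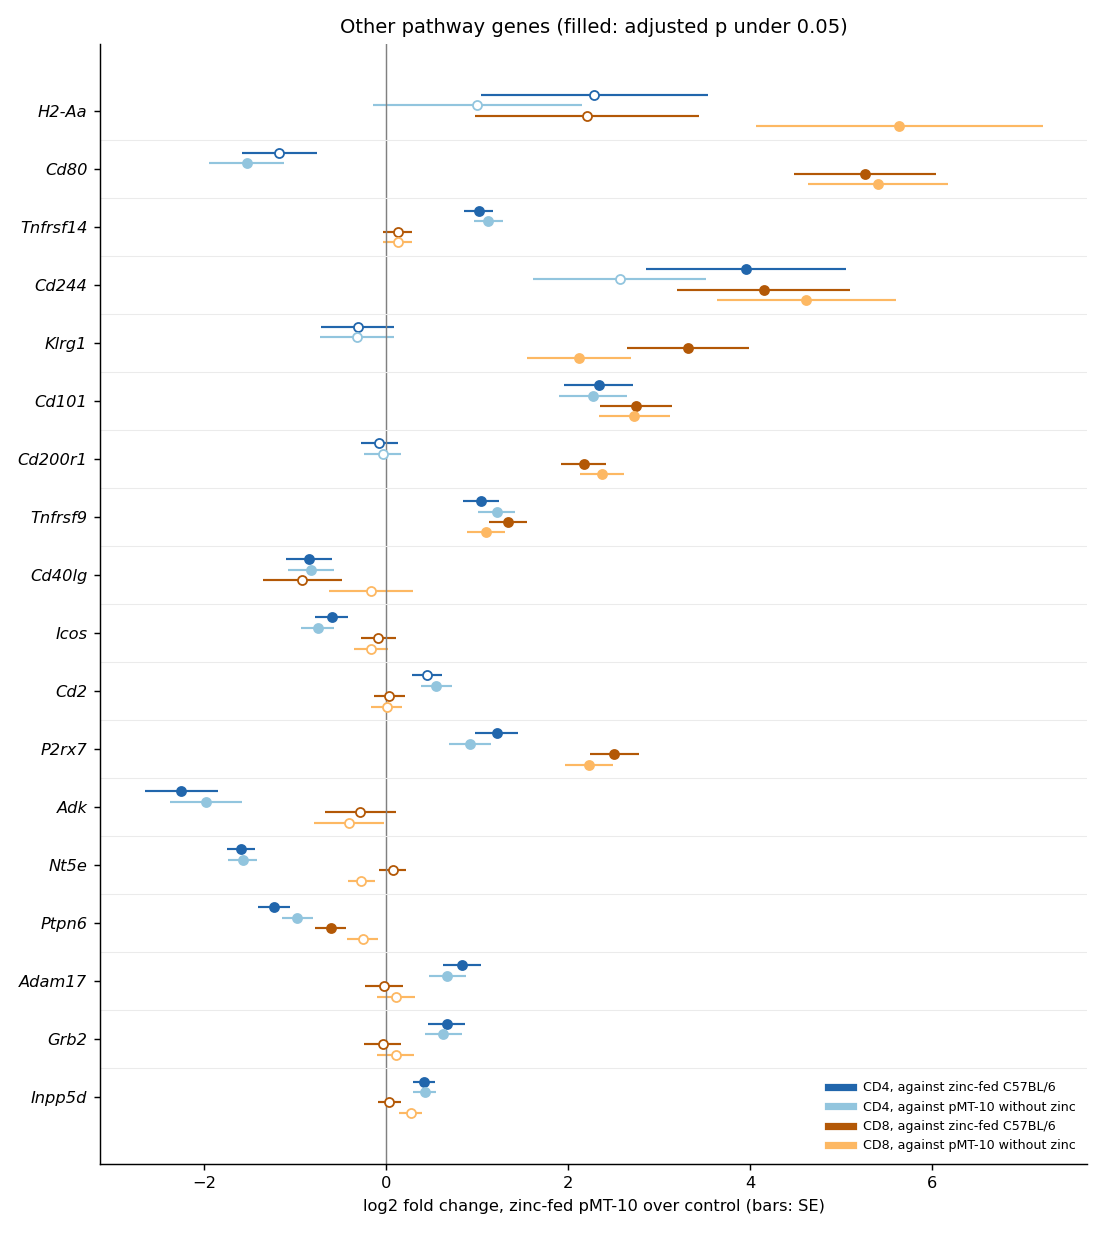
Log2 fold change of the 18 other pathway genes named by rule, in zinc-fed pMT-10 cells over each control; points are fitted values, bars are standard errors (n = 3 per group) and filled points have an adjusted p under 0.05. Cd101, Tnfrsf9 and P2rx7 are filled and right of 0 in all 4 comparisons, and Nt5e and Adk are filled and left of 0 in CD4 cells.

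Across the 18 libraries the members did not have the same pattern. As a description with no test, over libraries that share chips and mice, the genes with the highest Pearson correlation of log2 CPM to each member were taken from all genes tested. Pdcd1 was nearest to Atcay (r = 0.980), Tigit (0.978) and Il10ra (0.978), and Tigit to Tox2 (0.981), Rgs16 (0.981) and Pdcd1. Lag3 was nearest to Litaf (0.976), Bcl3 (0.967) and Irf8 (0.966), and Havcr2 to Napsa (0.975), Cd101 (0.973) and Litaf (0.962). The genes nearest to Cd274 were Il10 (0.980), Ttc16 (0.967) and Ica1 (0.962), and those nearest to Entpd1 were Naip5 (0.985), P2rx7 (0.977) and Atcay (0.975). Ctla4 was nearest to Rnf216 (0.985), Klrg1 (0.981) and Cd80 (0.975). For Cd160 they were Rhoq (0.939), 1110038F14Rik (0.932) and Cd7 (0.928). Btla had the lowest values, with Naip6 (0.874), Dock6 (0.857) and Ptpn3 (0.852). Within the 9 libraries of each cell type, Ctla4 ran with Lag3 at r = 0.852 in CD8 cells and -0.869 in CD4 cells, and with Pdcd1 at 0.959 in CD8 cells and -0.847 in CD4 cells. Pdcd1 and Lag3 ran together in both, at 0.938 in CD8 cells and 0.993 in CD4 cells. Each set of 9 holds 3 zinc-fed pMT-10 and 6 control libraries. Within the zinc-fed pMT-10 groups, replicate 2 was the lowest of the 3 for Pdcd1, Lag3, Havcr2, Tigit, Ctla4, Cd160 and Entpd1, in CD8 and in CD4 cells alike, and the numbers do not tie CD8 to CD4 libraries of one mouse.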

How the data were processed

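RNA of sorted mouse bone marrow T cells was extracted and read with the Ion AmpliSeq Transcriptome Mouse panel, per the labels. The deposited values are whole-number counts per gene, with no normalization by the authors, in 2 tables, 1 per chip. The genome build was mm10 per the submitters' processing notes. No aligner, counting setting or amplicon position is given in the sources used here, so levels of different genes were not ranked, and sums over marker genes and ratios to Foxp3 counts were compared between libraries only. Counts are of amplified reads, no molecular identifiers are named, and intervals cover counting error only. Libraries held 10546798 to 18519474 counts.

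Groups were taken from the labels (strain, water and cell type, 3 libraries each). Replicate numbers were given in accession order and link nothing across groups. Genes were filtered with filterByExpr, which left 11316 of 23930, and scaled with TMM in edgeR 4.0.16 (R 4.3.3). Because a gene passes that filter through its high group, counts over the members are descriptions. One quasi-likelihood model with robust estimation was fitted to 6 group means over all 18 libraries, and p-values were adjusted by Benjamini-Hochberg over all genes tested, with 0.05 as the threshold. Standard errors are the absolute log2 fold change divided by the square root of F. CPM are the values of edgeR on TMM-scaled library sizes, and their errors are SD over 3 libraries. With 3 libraries against 3 an exact permutation test cannot go below p = 0.1, so its p-values are not given. The difference between the CD8 and the CD4 change was tested as a contrast of the same model. That model took all 18 libraries as independent, so comparisons of CD8 with CD4 cells did not account for shared mice. Alternatives were DESeq2 1.42.0, other scalings and filters, fits to fewer groups, no robust estimation and omission of each library. The joint omission of the zinc-fed pMT-10 CD4 and CD8 libraries of lowest Lag3, added after seeing the data, is counted among the settings.

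The members and gene lists were chosen with earlier results of these data known. All members are named in every comparison. From each other list, genes called in at least 1 of 4 comparisons of zinc-fed pMT-10 cells with a control are named, up to the 4 with the largest change. For each member the 3 genes of highest Pearson correlation are named. List medians stand beside a median over all genes tested of -0.05 to -0.00. Promoter windows are from RefSeq (GRCm38.p6), and 8 of 9 members matched, with 10 windows.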

Additional observations from a re-analysis of the deposited data

Results flagged for a closer look

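The change in zinc-fed pMT-10 mice differed between CD8 and CD4 cells, by the test of that difference itself, for 5 of 9 members. It also differed for 8 genes of the other lists, of which 10, 7, 8, 7 and 12 genes were tested. Of 11316 genes tested, 621 passed in either direction against C57BL/6 and 428 against pMT-10 without zinc. Values are the CD8 minus the CD4 log2 fold change. Against pMT-10 without zinc they were 3.71 for Ctla4, 3.38 for Tigit, 2.79 for Pdcd1, 1.97 for Entpd1 and 1.17 for Cd274. Against zinc-fed C57BL/6 they were 3.60 for Ctla4, 3.36 for Tigit, 3.34 for Pdcd1, 2.17 for Entpd1 and 1.25 for Cd274. Both sets share the zinc-fed pMT-10 libraries.

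Cd80, at 1 pooled count in each CD8 control, differed by 6.94 against pMT-10 without zinc and 6.44 against C57BL/6. Cd200r1 differed by 2.42 and 2.24 against the same controls in that order. Nt5e, which fell in CD4 cells, differed by 1.31 against pMT-10 without zinc and 1.67 against C57BL/6, with the difference itself called in every setting run. P2rx7 differed by 1.31 and 1.29 against the same controls, calls that ended in 10 and 8 of 12 single-library omissions (adjusted p = 0.0502 to 0.0950). Tnfrsf14 was the partner gene with the larger change in CD4 cells, at -0.99 against pMT-10 without zinc and -0.89 against C57BL/6. The first of these ended on leaving out zinc-fed pMT-10 CD4 replicate 1 (0.0647) or no-zinc CD4 replicate 3 (0.0501), and the second in 6 of 12 omissions (0.0503 to 0.0817).

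The remaining genes differed against C57BL/6 and were not called against pMT-10 without zinc: Klrg1 by 3.63, Adk by 1.97 and Lair1 by -1.69. The Adk difference ended in 10 of 12 single-library omissions (adjusted p = 0.0576 to 0.128).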

How the results depend on the processing

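No paired analysis was run, because the labels carry no replicate numbers and do not tie CD4 to CD8 libraries of the same mouse. The running numbers in the sample titles were not taken as a pairing. Depth limits Havcr2 in CD8 controls and Cd160 in CD4 controls, which stood at a few counts per library.

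Counts of all genes called moved by over 1.5 times in these cases. The difference between cell types gave 621 genes against C57BL/6, 1030 with DESeq2 and 1055 with no filter on low counts, and 255 to 837 when single libraries were left out. Against pMT-10 without zinc it gave 428, then 799 with DESeq2, 847 with no filter and 133 to 693 with single libraries left out. Between both controls 16 genes were called in CD4 cells (33 with DESeq2, 83 with no filter, 7 to 12 with a library left out) and 11 in CD8 cells (42 with DESeq2, 107 with no filter). Zinc-fed pMT-10 CD8 cells gave 997 against C57BL/6 (588 in a fit to both groups alone, 613 in a fit to CD8 cells alone) and 876 against pMT-10 without zinc (559 in a fit to CD8 cells alone). Zinc-fed pMT-10 CD8 against CD4 cells gave 3178, and 2095 without the zinc-fed pMT-10 CD8 and CD4 libraries of lowest Lag3, an omission added after seeing the data. Those libraries were picked on a member, so that fit says nothing about the stability of the members. With single libraries left out, zinc-fed pMT-10 CD4 cells gave 1377 to 2160 against C57BL/6 and 1373 to 2103 against pMT-10 without zinc, and CD8 cells gave 587 to 920 and 565 to 755. Fits with a library left out or to fewer groups held fewer libraries, and fits with no filter held more genes. The cause of the moved counts was not tested.

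Members called ranged from 4 to 8 in CD4 cells against C57BL/6 (7 with all libraries, 4 without C57BL/6 CD4 replicate 2) and from 2 to 5 for the difference between cell types against pMT-10 without zinc (5 with all libraries, 2 without zinc-fed pMT-10 CD4 replicate 1). Between both controls 1 member, Lag3 in CD4 cells, was called with no filter. The calls of Lag3, Havcr2 and Ctla4 in zinc-fed pMT-10 cells kept their direction and their side of the threshold in all 4 comparisons under 15 settings each. Those settings include the joint omission picked on Lag3, which says nothing about the stability of these calls.

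Scaling by library totals alone moved the median of all genes to -0.16 in CD4 cells against C57BL/6 and -0.20 against pMT-10 without zinc, and the share of calls that were higher to 36.5% and 31.3%, against 49.7% and 49.9% with TMM. For the difference between cell types the medians moved to 0.21 and 0.22 and the shares to 84.4% and 87.6%, against 62.2% and 64.5%. In CD8 cells against C57BL/6 the share was 74.9%, against 64.5% with TMM. In CD8 against CD4 cells it was 57.7%, against 47.6% with TMM, in zinc-fed pMT-10 mice, and 31.0%, against 41.2% with TMM, without zinc.

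Among members and named genes, only differences that did not pass with all libraries changed sign. Btla in zinc-fed pMT-10 CD4 cells against pMT-10 without zinc became -0.142 with library totals alone, -0.0812 without both libraries of lowest Lag3 and -0.0820 to 0.0799 with single libraries left out, and against C57BL/6 it was -0.336 to 0.0597. In zinc-fed pMT-10 CD8 against CD4 cells Btla was -0.00804 with DESeq2, -0.00813 with size factors of the RLE kind and -0.0461 to 0.0984 with libraries left out, and Cd274 was 0.0653 without the 2 libraries of lowest Lag3 and -0.231 to 0.0353 with single ones left out. Between both controls, omissions gave -0.346 to 0.0546 for Btla, -0.921 to 0.0537 for Cd160, -0.105 to 0.206 for Cd274, -0.0382 to 0.307 for Ctla4 and -0.0261 to 0.172 for Entpd1 in CD4 cells. In CD8 cells they gave -0.23 to 0.23 for Cd160, -0.40 to 0.29 for Ctla4, -1.21 to 3.06 for Havcr2, -0.85 to 0.11 for Lag3 and -0.21 to 0.96 for Pdcd1. Ctla4 there was 0.000395 with DESeq2, 0.0519 in a fit to both groups alone, 0.0466 in a fit to CD8 cells alone and 0.00819 with library totals alone. The cause was not tested.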
